A study of Mus musculus with 16 samples.

Results

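Nuclear receptors and the transcription factors that set hepatocyte identity were followed as a list of 42 mouse genes, matched by symbol in the deposited table of liver tag counts with all rows of a symbol summed. All 42 symbols were among the 20826 in the table, 37 of the 42 had at least 1 tag, and 6 of the 42 had enough tags for a test across all genes. The list held 11 hepatocyte identity factors, 3 retinoid X receptors, 9 receptors for lipids, bile acids and xenobiotics, 6 orphan receptors, 7 receptors for hormones and vitamins, and 6 metabolic transcription factors.

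Livers came from 16 male mice of the strain C57BL/6J, with 4 mice in each of 4 feeding groups and a library per mouse. The label gives an age of 4 weeks, which cannot be the age at collection after 18 weeks of feeding. Mice of the N group were fed a normal diet (10% fat) and those of the HF group a high-fat diet (45% fat), both for 18 weeks. The NW and HFW groups were fed these diets with 1% WEPAK added, the study's water-soluble extract of Pacific krill. SuperSAGE, the method used, reads a short tag beside an NlaIII site (CATG) of each polyadenylated transcript, so a transcript gives 1 tag whatever its length and levels need no correction for length. The labels name no engineered allele, and the samples are liver tissue without sorting of cell types.

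Nuclear receptors are transcription factors, and the activity of many is set by a small molecule bound in the ligand pocket. Several nuclear receptors, such as the PPARs, LXRs, FXR, PXR and CAR, bind DNA as a pair with a retinoid X receptor, while HNF4A binds as a pair with itself. In liver they adjust fatty acid oxidation, bile acid synthesis, cholesterol export and drug metabolism to diet. FOXA, ONECUT, C/EBP and PROX1 proteins act beside them as factors of hepatocyte development and identity.

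The tags expected for these genes can be predicted from the gene models. How the counted tags were matched is not stated, so they may differ from the predicted ones. Each tag below was taken at the last NlaIII site of the transcript in GENCODE M21 on GRCm38. Capitals mark the NlaIII site, and the following 22 bases are the rest of the 26-base tag. The first 5 belong to receptors and a zinc finger factor that were tested across all genes, the next 3 to factors counted at lower levels, and the last 2 to receptors with no tag in any library.
Rxra: CATGagaggagagacaaatatgagcg
Hnf4a: CATGaccttcacaccaaacattcaga
Rara: CATGgggcccttcaacacacacacac
Nr1i3: CATGgctgccacggccctcttctccc
Zbtb16: CATGtgttgagaggatatgggctggg
Cebpb: CATGgcggccggtttcccgttcgccc
Usf2: CATGatggctcacaaacctctgtaat
Mlxipl: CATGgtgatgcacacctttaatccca
Nr1h2: CATGcaccttgagtggagagaggtta
Nr1i2: CATGacttggtgggggtcggtctgca

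The Rxra tag lies at chr2:27762903-27762928 and the Hnf4a tag at chr2:163572685-163572710, both in the 3′ UTR on the plus strand. The Rara tag is at chr11:98974636-98974661 (plus strand, 3′ UTR) and the Zbtb16 tag at chr9:48654838-48654863 (minus strand, 3′ UTR). The Nr1i3 tag, at chr1:171217402-171217427 on the plus strand, and the Cebpb tag, at chr2:167689474-167689499 on the plus strand, fall in coding sequence. The Usf2 tag is at chr7:30945336-30945361 (minus strand, 3′ UTR) and the Mlxipl tag at chr5:135138348-135138373 (plus strand, 3′ UTR). The tags of Nr1h2 (chr7:44549711-44549736) and Nr1i2 (chr16:38248434-38248459) lie in the 3′ UTR on the minus strand. A full 26-base tag was had for 40 of the 42 genes, and for 39 of them no other gene's transcripts held it. Only exact matches in annotated transcripts were counted, and near matches or copies elsewhere in the genome were not searched. For Nr5a2 it came from a RefSeq row with 0 tags, and the transcript of the row that holds its 13 tags gave none. The last Mlxipl tag is also the last tag of Hps3, so tags of these genes cannot be told apart at that site.

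Libraries held 56655 to 149349 tags in named genes, so that 1 tag was worth 6.70 to 17.7 CPM (tags per 1000000 of the library total). Levels below are in CPM of the library size after normalization between libraries. The 4 HF libraries were deeper (91468 to 149349 tags) than most others (56655 to 120143). In a principal component analysis of the 500 tested genes with the largest variance, N mouse 4 had a score of -16.5 on the leading component (44.5% of the variance), below all HF mice (-15.6 to -8.61), and N mouse 8, at 4.90, was above 3 of the 4 HFW mice. Results were therefore also computed without these 2 mice. Of the defining hepatocyte markers, 7 of 7 carried tags over the 16 libraries together, and their sum was at least 49333 CPM in every library. In whole liver, fewer cells of a type and less RNA per cell cannot be told apart.

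The 42 genes together made up a small and even share of the liver transcriptome. They held 5249 of 1379164 tags, or 0.381%, with 0.301% to 0.443% in single libraries. The share was 0.361% ± 0.0535 (SD, n = 4) in N, 0.378% ± 0.0580 in HF, 0.396% ± 0.0309 in NW and 0.366% ± 0.0595 in HFW, so the group means differed by less than the largest SD within a group. Rxra alone held 43.1% of these tags, and the 6 genes with enough tags for a test held 82.3%. A further 15 genes with 20 or more tags held 15.1%, and 16 genes with 1 to 19 tags held 2.55%.

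**Figure D1:**
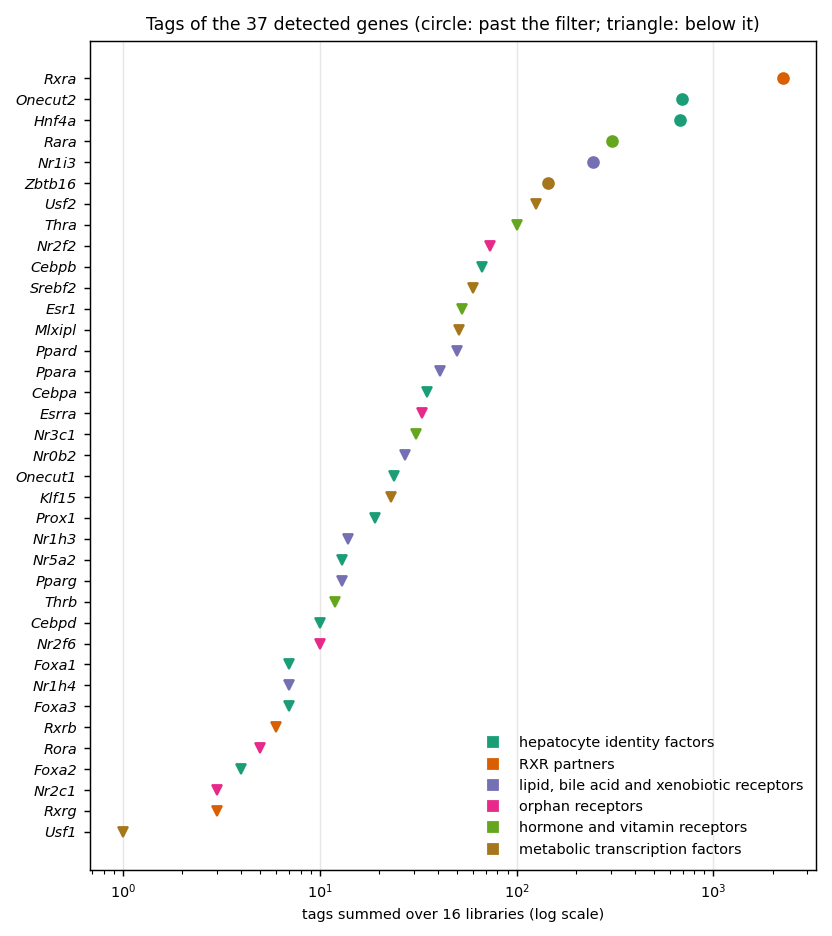
Tags summed over the 16 libraries (log scale) for each of the 37 detected genes, coloured by role; circles are the genes tested across all genes and triangles those below that filter. Rxra, at 2264 tags, stands apart from Onecut2 (690) and Hnf4a (675), and most genes lie under 100 tags.

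The genes without any tag were Nr1h2 (the ubiquitous LXR isoform), Nr1i2 (PXR, a xenobiotic sensor), Nr2f1 (COUP-TFI), Rarb (a retinoic acid receptor) and Vdr (the vitamin D receptor). A count of 0 over all libraries allows up to 2.18 CPM (3 tags of the total), and in single libraries up to 20.1 to 53.0 CPM. These limits cover counting error only. The model transcript of Vdr ends too close to its last NlaIII site to give a full tag. The same holds for Foxa1 and for the counted row of Nr5a2. Those of Nr1h2 and Nr1i2 give the full and unshared tags printed above. Those of Nr2f1 and Rarb also give full tags that no other gene's transcripts held.

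Between 20 and 30 of the 42 genes were detected per library, 21 to 30 in N, 27 to 29 in HF, 20 to 30 in NW and 21 to 28 in HFW. With every library brought to the smallest total of 56655 tags, the expected number was 19.9 to 26.1. The narrower and higher range in HF went with the deeper HF libraries.

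**Figure D2:**
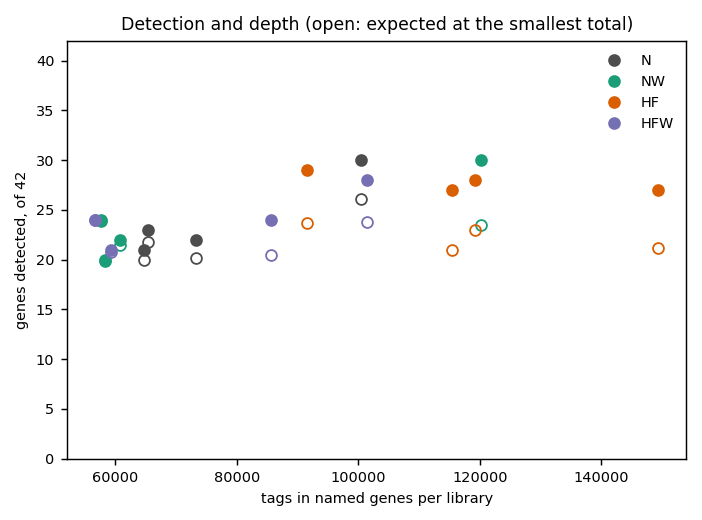
Number of the 42 genes with a tag in each library (filled) against the tags of that library in named genes, with the number expected at the smallest total (open), coloured by feeding group. Deeper libraries detected more genes, up to 30, and at equal depth the expected numbers run from 19.9 to 26.1.

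Rxra encodes the retinoid X receptor alpha, the partner shared by most of the lipid and xenobiotic receptors. Its level in N mice 4, 5, 7 and 8 was 1592, 1697, 1257 and 1595 CPM, and in NW mice 11, 12, 15 and 20 it was 1433, 1818, 1610.3 and 1529.6 CPM. HF mice 23, 25, 28 and 29 had 2306, 2084, 1081 and 1619 CPM, and HFW mice 34, 36, 38 and 40 had 1160.2, 1118, 1584 and 1804 CPM (the same order of mice is used below). The 4 groups overlapped, and the HF group alone held both the highest and the lowest mouse. Rxra stood above Onecut2, the next gene in level, in 16 of 16 mice, with a mean 3.06 times as high and ranges that did not overlap. Group means were 1535 ± 192 CPM (SD, n = 4) in N, 1772 ± 543 in HF, 1598 ± 164 in NW and 1416 ± 333 in HFW. Its log2 fold change was 0.21 (SE 0.25) in HF against N, -0.32 (SE 0.25) in HFW against HF, and -0.13 (SE 0.18) as the mean WEPAK effect over both diets, and none passed. The last had a Benjamini-Hochberg adjusted p of 0.625 in edgeR's quasi-likelihood test, the test used throughout for these 6 genes.

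The other retinoid X receptors were near the limit of counting. Rxrb had 6 tags in 6 libraries and Rxrg 3 tags in 3 libraries.

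Among the hepatocyte identity factors, Onecut2 (HNF-6 beta) and Hnf4a (the factor most central to hepatocyte gene expression) had enough tags for a test. Onecut2 had 431, 505, 529 and 681 CPM in N mice and 648, 731, 768 and 608 CPM in NW mice. It had 347, 451, 393 and 254 CPM in HF mice and 429, 612, 391 and 479 CPM in HFW mice. By mean, the NW mice were the highest group and the HF mice the lowest. N overlapped NW, HF and HFW, and HF overlapped HFW. NW and HFW overlapped as well, with HFW mouse 36 (612 CPM) above NW mouse 20 (608 CPM).

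Onecut2 means were 537 ± 105 CPM (SD, n = 4) in N against 361 ± 82.9 in HF and 689 ± 73.2 in NW against 478 ± 96.2 in HFW. All 8 high-fat mice lay below the mean of the normal-diet mice with the same extract state. The mean high-fat effect was -0.54 (SE 0.18) on the log2 scale and did not pass (edgeR, Benjamini-Hochberg adjusted p = 0.104, unadjusted p = 0.00596). Without N mouse 4 it was -0.58 and passed (adjusted p = 0.0449, same edgeR test), in a fit where 107 of 1205 genes passed against 6 of 1046 with all mice. Without N mice 4 and 8 it was -0.50 and did not pass (edgeR adjusted p = 0.179), with 55 of 1359 genes called. With WEPAK, 8 of 8 mice lay above the mean of the mice without it on the same diet, by 0.38 (SE 0.18) on average, which did not pass either (adjusted p = 0.116, same edgeR test).

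Hnf4a had 164, 629, 489.7 and 365 CPM in N mice and 631, 527, 562 and 399.8 CPM in NW mice. It had 305, 507, 295 and 593 CPM in HF mice and 545, 681, 559 and 517 CPM in HFW mice. The 4 HFW mice lay close together, while N mouse 4 was the lowest of all 16 mice. Group means were 412 ± 198 CPM (SD, n = 4) in N, 425 ± 149 in HF, 529.9 ± 97.0 in NW and 576 ± 72.7 in HFW. The mean WEPAK effect was 0.38 (SE 0.22), with 7 of 8 mice on that side, and did not pass (edgeR, Benjamini-Hochberg adjusted p = 0.199). In HF against N the value was 0.025 (SE 0.31) and turned to -0.22 without N mouse 4, -0.062 without HF mouse 25 and -0.15 without HF mouse 29.

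The summed level of the 7 hepatocyte markers ran from 58237 to 80778 CPM in N (mean 66052), from 51248 to 62692 CPM in HF (mean 56201), from 79677 to 101564 CPM in NW (mean 88584) and from 49333 to 75977 CPM in HFW (mean 67669). NW was thus the highest group and HF the lowest by mean, as for Onecut2. The part of these markers in the Onecut2 and Hnf4a levels, and in the Nr1i3 and Zbtb16 differences below, was not tested.

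The remaining identity factors were scarce. Cebpa, a regulator of hepatic metabolism, had 35 tags, Onecut1 (HNF-6) 24 and Prox1, a factor of liver bud growth, 19, and Nr5a2 (LRH-1, a regulator of bile acid synthesis) had 13. The pioneer factors Foxa1, Foxa2 and Foxa3 had 7, 4 and 7 tags, and Cebpd, an acute-phase factor, had 10. Onecut1, the paralogue of Onecut2, had 7 tags in N, 3 in HF, 8 in NW and 6 in HFW, against 163, 183, 200 and 144 for Onecut2. Onecut1 thus had far fewer tags than its paralogue in every group. How tags were matched to genes is not stated, so the transcript levels of the paralogues may differ otherwise.

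Cebpb, an acute-phase and gluconeogenic factor, was the identity factor whose HF mice all lay above the other groups, by a narrow margin. It had 59.5, 47.7, 0 and 33.2 CPM in N mice and 51.2, 8.50, 18.7 and 0 CPM in NW mice. It had 94.7, 62.6, 106 and 67.8 CPM in HF mice and 23.2, 52.4, 37.3 and 37.6 CPM in HFW mice. Every HF mouse was above every mouse of the other groups. The gap between HF mouse 25 (62.6 CPM) and N mouse 4 (59.5 CPM) was smaller than 1 tag. In the library of N mouse 4, 1 tag was worth 15.3 CPM of the raw total. The deeper HF libraries held 40 Cebpb tags, against 11 in N, 5 in NW and 11 in HFW.

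Of the 21 listed genes with 20 or more tags, Cebpb was the 1 whose HF and N mice did not overlap, where 3.23% of all 3378 such genes did not. Between HFW and HF the mice did not overlap for Cebpb, lower in HFW, and Usf2, higher in HFW, while 9.06% of all such genes did not. Both comparisons use the same HF mice. Between NW and N, and between HFW and NW, the mice of each of the 21 genes overlapped, with 8.64% and 5.74% of all such genes not overlapping.

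Over both diets Cebpb averaged 28.6 ± 19.2 CPM (SD, n = 8) with WEPAK and 59.0 ± 33.6 CPM without, a difference of -30.4 CPM (two-sided exact permutation test p = 0.0448, Benjamini-Hochberg adjusted p = 0.349). Over both extract states it averaged 60.3 ± 28.9 CPM on the high-fat diet and 27.4 ± 23.8 CPM on the normal diet (exact permutation p = 0.0275, adjusted p = 0.791). Fitted without the filter, Cebpb had a log2 fold change of 1.36 (SE 0.59) in HF against N and -1.35 (SE 0.59) in HFW against HF. Neither passed (edgeR, Benjamini-Hochberg adjusted p = 0.757 and 0.497). Stellate cell markers, 8 of 8 with tags, summed to 548 to 1071 CPM in N, 547 to 3988 in HF, 409 to 1067 in NW and 856 to 4096 in HFW, with overlap between HF and HFW. Kupffer cell and macrophage markers, 7 of the 8 in the table with tags and Cd68 at 0, summed to 185 to 365 CPM in N (mean 265), 84.8 to 313 in HF (mean 208), 102 to 206 in NW (mean 148) and 69.9 to 244 in HFW (mean 158). Sinusoidal endothelial markers, 7 of 7 with tags, summed to 465 to 907 CPM in N (mean 733), 800.1 to 964 in HF (mean 866), 427 to 731 in NW (mean 654) and 658 to 777 in HFW (mean 719), so that HF lay above HFW without overlap, as for Cebpb. The part of these cell types in the Cebpb levels was not tested.

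Nr1i3 encodes CAR, a receptor that induces drug-metabolizing enzymes. It had 74.4, 181, 146 and 133 CPM in N mice and 222, 263, 187 and 156 CPM in NW mice. It had 94.7, 125, 139 and 153 CPM in HF mice and 92.8, 192, 317 and 357 CPM in HFW mice. All mice with WEPAK but HFW mouse 34, which was at the level of the lowest HF mouse, lay above the mean of the mice without it on the same diet.

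The mean WEPAK effect on Nr1i3 was 0.76 (SE 0.26) on the log2 scale and passed (edgeR, Benjamini-Hochberg adjusted p = 0.0256). Means were 223 ± 86.2 CPM (SD, n = 8) with WEPAK and 131 ± 33.4 CPM without, and 7 of 8 mice lay on the higher side. Within each diet the difference did not pass, at 0.63 (SE 0.38, adjusted p = 0.284) in NW against N and 0.89 (SE 0.36, adjusted p = 0.0989) in HFW against HF (edgeR quasi-likelihood test). The call was lost without N mouse 4 (0.66, adjusted p = 0.0677), NW mouse 12 (0.70, adjusted p = 0.0608), HFW mouse 38 (0.69, adjusted p = 0.0604) or HFW mouse 40 (0.62, adjusted p = 0.0905), and without N mice 4 and 8 (0.59, adjusted p = 0.130), by the same edgeR test. In HFW against HF, leaving out HFW mouse 34 gave 1.18 and passed (adjusted p = 0.0254, edgeR), while leaving out HFW mouse 40 gave 0.54 (adjusted p = 0.426). The high-fat diet gave -0.086 (SE 0.38) in HF against N.

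Zbtb16 encodes PLZF, a zinc finger repressor that takes part in glucose production in liver. It had 14.9, 28.6, 52.9 and 33.2 CPM in N mice and 85.3, 272, 337 and 17.4 CPM in NW mice. It had 31.6, 138, 73.7 and 102 CPM in HF mice and 139, 122, 37.3 and 103 CPM in HFW mice. The N mice were the lowest group, 3 of 4 NW mice were above all of them, and NW mouse 20 lay within their range.

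The difference between NW and N was 2.45 (SE 0.63) on the log2 scale, with a mean of 178 ± 151 CPM (SD, n = 4) in the NW mice and 32.4 ± 15.7 CPM in the N mice, and with 10 tags behind the N mean and 56 behind the NW mean. It passed (edgeR, Benjamini-Hochberg adjusted p = 0.0125). The mean WEPAK effect was 1.33 (SE 0.42) and passed as well (adjusted p = 0.0172, edgeR), with 6 of 8 mice on that side. These comparisons share the N and NW mice. In HFW against HF the value was 0.21 (SE 0.53), with means of 101 ± 44.7 and 86.2 ± 44.8 CPM, and did not pass (edgeR adjusted p = 0.849). The difference between the extract's effect on the high-fat diet and on the normal diet, the interaction, was -2.25 (SE 0.84) and failed the test (edgeR adjusted p = 0.998, unadjusted p = 0.0120). HF against N gave 1.43 (SE 0.65) and did not pass (edgeR adjusted p = 0.486).

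The NW against N call for Zbtb16 was lost without N mouse 4 (2.25, adjusted p = 0.0600), NW mouse 12 (2.16, adjusted p = 0.0639) or NW mouse 15 (2.10, adjusted p = 0.0545) and without N mice 4 and 8 (2.17, adjusted p = 0.119), by the edgeR test. The mean WEPAK call was lost without NW mouse 12 (1.17, adjusted p = 0.0558) and without N mice 4 and 8 (1.16, adjusted p = 0.0826), by the same test. With limma-voom neither passed (1.97, adjusted p = 0.111, and 1.12, adjusted p = 0.0841), nor did the Nr1i3 effect (0.68, adjusted p = 0.0561). Zbtb16 was also the most variable of the tested genes of the list, with a biological coefficient of variation of 0.416, above that of 96.5% of all tested genes. Onecut2 (0.221) and Rara (0.218) varied least, with 10.8% and 9.56% of tested genes below them, and the median of all tested genes was 0.263.

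Rara, the retinoic acid receptor alpha, had 238, 219, 291 and 365 CPM in N mice and 205, 119, 131 and 295 CPM in NW mice. It had 200.02, 232, 270.2 and 195 CPM in HF mice and 139, 209.7, 242 and 207 CPM in HFW mice. N held the highest mouse, and all groups overlapped. Group means were 278 ± 65.5 CPM (SD, n = 4) in N, 224 ± 34.7 in HF, 188 ± 81.3 in NW and 199 ± 43.3 in HFW. The mean WEPAK effect of -0.39 (SE 0.23) did not pass (edgeR, Benjamini-Hochberg adjusted p = 0.192). Of its 304 tags, 302 were counted to 1 of the 4 RefSeq rows for Rara, 2 other rows had 1 each and the remaining row 0. The transcripts of the 3 rows with tags end in the same last tag, so this split says nothing of isoform use.

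**Figure D3:**
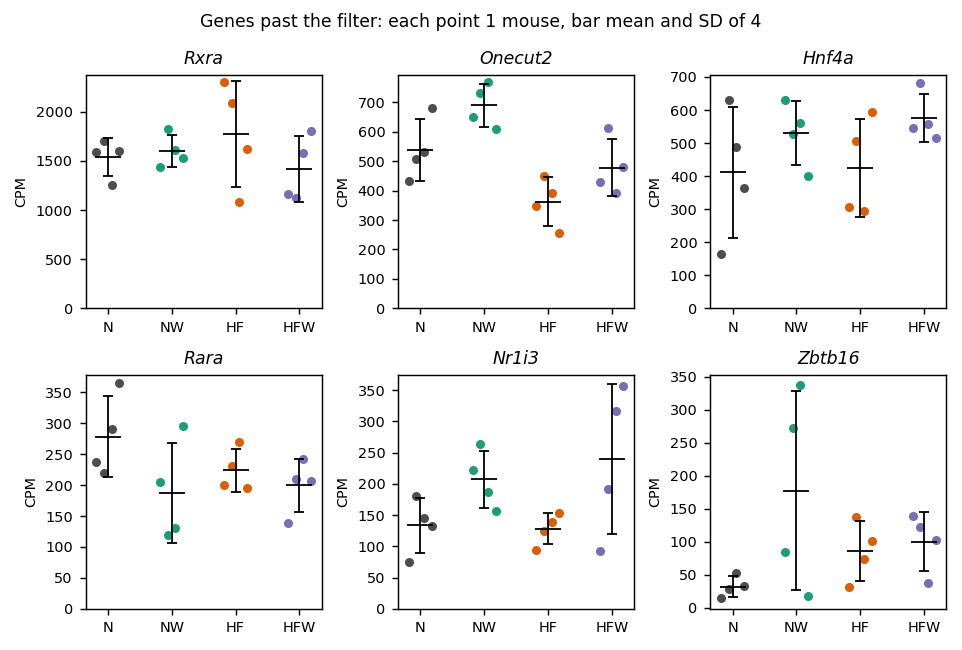
CPM of the 6 genes tested across all genes, by feeding group; each point is 1 mouse, with the mean and SD of 4 mice, on axes that start at 0. Zbtb16 is low in all 4 N mice (14.9 to 52.9 CPM) and spread from 17.4 to 337 CPM in NW, and Onecut2 is lowest in HF.

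Read against all tested genes, the list did not stand out by number of calls. For the mean WEPAK effect 2 of 6 tested genes passed, both higher, where 31.3% of all 1046 tested genes passed. For NW against N it was 1 of 6 with a background of 11.0%, and for HFW against HF 0 of 6 with 9.85%. For HF against N (0.0956% of genes called), the mean high-fat effect (0.574%), HFW against NW (0%) and the interaction (0%) it was 0 of 6 by the edgeR quasi-likelihood test. At an unadjusted p under 0.05 the 6 genes gave 2 in HF against N (Onecut2 and Zbtb16), 1 in HFW against HF (Nr1i3), 1 in NW against N (Zbtb16), 3 in the mean WEPAK effect (Zbtb16, Nr1i3 and Onecut2), 1 in the mean high-fat effect (Onecut2), 0 in HFW against NW and 1 in the interaction (Zbtb16). All 1046 tested genes gave 103, 299, 298, 445, 215, 126 and 26 in the same order. The median log2 fold change of the 6 was 0.38 for the mean WEPAK effect, with 4 positive, and 0.025 over all tested genes. These 6 are the genes of the list that passed a filter on counts and do not stand for the 42.

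**Figure D4:**
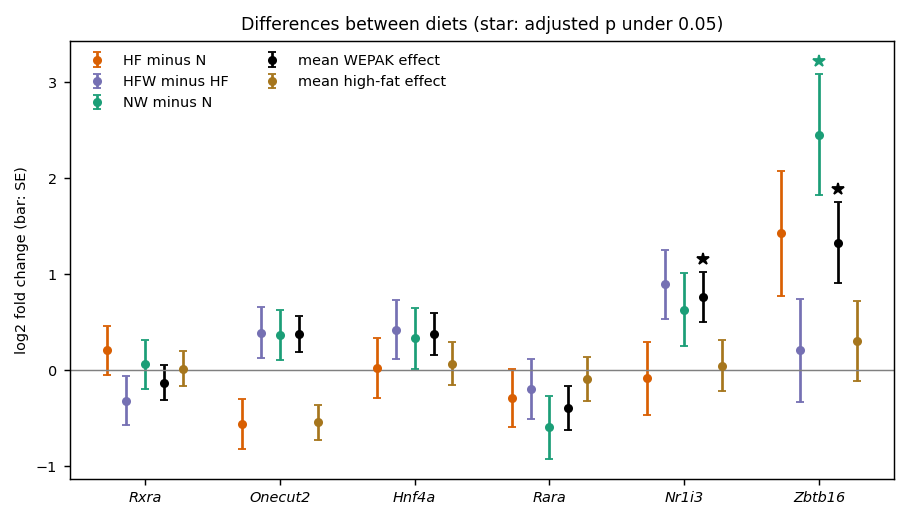
Log2 fold change with its SE for the 6 tested genes in 5 comparisons, with a star where the adjusted p is under 0.05 (edgeR quasi-likelihood test). Stars mark Zbtb16 in NW against N and in the mean WEPAK effect and Nr1i3 in the mean WEPAK effect; the Onecut2 values for HF against N (-0.56) and the mean high-fat effect (-0.54) lie below 0.

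The 15 listed genes with 20 or more tags below that filter were compared in CPM over 8 mice against 8. None passed for the mean WEPAK effect, where 0.386% of 2332 such genes did (9 genes), and none for the mean high-fat effect, where 0% did. At an unadjusted p under 0.05 the counts were 2 of 15 for WEPAK (Cebpb and Mlxipl), against 13.8% of such genes, and 1 of 15 for the high-fat diet (Cebpb), against 5.96% of them. The two-sided exact permutation test has a smallest possible p of 0.000155 here, and the 15 genes had adjusted p from 0.342 to 0.996 for WEPAK and from 0.791 to 0.992 for the diet.

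Mlxipl encodes ChREBP, the glucose-responsive activator of glycolytic and lipogenic genes. It had 14.9, 57.2, 13.2 and 0 CPM in N mice, 102, 34.0, 93.6 and 52.1 in NW mice, 10.5, 12.5, 40.9 and 42.4 in HF mice, and 0, 52.4, 37.3 and 65.8 in HFW mice. The NW mice were the highest group, overlapping N through N mouse 5. The mean was 54.7 ± 33.1 CPM (SD, n = 8) with WEPAK and 24.0 ± 20.1 CPM without, a difference of 30.7 CPM (exact permutation p = 0.0420, adjusted p = 0.342). Its last tag is shared with Hps3, as given above.

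Ppara, the fatty acid receptor that drives oxidation in fasting, had 0, 57.2, 0 and 0 CPM in N mice, 34.1, 51.0, 112 and 17.4 in NW mice, 21.1, 6.26, 40.9 and 17.0 in HF mice, and 11.6, 52.4, 74.5 and 18.8 in HFW mice. It was absent from the counts of 3 N libraries and present in all other libraries. The mean was 46.5 ± 34.1 CPM (SD, n = 8) with WEPAK and 17.8 ± 21.3 CPM without, which did not pass (exact permutation p = 0.0567, adjusted p = 0.375). The other lipid and bile acid receptors were Ppard, a widely expressed fatty acid receptor, with 50 tags, Nr0b2 (SHP, a repressor of bile acid synthesis) with 27, Nr1h3 (LXR alpha, an oxysterol receptor) with 14, Pparg, best known from adipocytes, with 13 and Nr1h4 (FXR, the bile acid receptor) with 7. Of the 14 Nr1h3 tags, 1 was in N, 8 in the deeper HF libraries, 1 in NW and 4 in HFW, in 5 libraries in all. In CPM the Nr1h3 mean was 2.38 ± 4.77 (SD, n = 4) in N, 14.9 ± 19.5 in HF, 4.68 ± 9.36 in NW and 9.39 ± 18.8 in HFW. The 7 tags of Nr1h4 came from 7 libraries.

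Usf2, an E-box factor of lipogenic and glucose-responsive genes, had 44.6, 133, 106 and 49.8 CPM in N mice, 68.2, 85.0, 37.4 and 104 in NW mice, 84.2, 75.1, 81.9 and 76.3 in HF mice, and 92.8, 105, 112 and 150.3 in HFW mice. The HF mice were close together and all below the HFW mice, while N and NW together spread from 37.4 to 133 CPM. Averaged over both diets, the WEPAK difference was 12.9 CPM (exact permutation p = 0.415). Usf1, which pairs with Usf2, had 1 tag in all. Srebf2, the activator of cholesterol synthesis, had 60 tags, 14 in N, 27 in the deeper HF libraries, 9 in NW and 10 in HFW. Of the 27 HF tags, mouse 25 held 17 and mouse 23 held 7. In CPM the Srebf2 mean was 46.4 ± 6.48 (SD, n = 4) in N, 51.2 ± 46.9 in HF, 30.0 ± 21.5 in NW and 34.1 ± 16.2 in HFW. Klf15, a factor of amino acid and glucose metabolism, had 23 tags.

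Nr2f2 (COUP-TFII) had 73 tags and was the orphan receptor with the highest level. It had 59.5, 114, 52.9 and 16.6 CPM in N mice, 171, 59.5, 37.4 and 69.5 in NW mice, 21.1, 56.3, 24.6 and 17.0 in HF mice, and 34.8, 52.4, 55.9 and 37.6 in HFW mice. Its mean was 37.4 ± 15.96 CPM (SD, n = 8) on the high-fat diet and 72.6 ± 48.5 CPM on the normal diet, with overlapping ranges (exact permutation p = 0.0542, adjusted p = 0.797). Esrra, a regulator of mitochondrial genes, had 33 tags, Nr2f6 (EAR-2) 10, Rora, a receptor of the clock system, 5 and Nr2c1 (TR2) 3.

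Among receptors for hormones, Thra (thyroid hormone receptor alpha) had 101 tags and Thrb, the form usually tied to hepatic thyroid responses, 12. Thra had 16.6 to 119 CPM in N, 50.9 to 123 in HF, 8.50 to 86.9 in NW and 52.4 to 93.2 in HFW, so the groups overlapped widely. Esr1, the estrogen receptor alpha, had 53 tags. Nr3c1, the glucocorticoid receptor, had 59.5, 66.7, 0 and 49.8 CPM in N mice, 0, 25.5, 0 and 17.4 in NW mice, 10.5, 31.3, 16.4 and 0 in HF mice, and 23.2, 0, 0 and 28.2 in HFW mice. It was highest in 3 N mice and at 0 in the fourth, and the WEPAK difference was -17.5 CPM (exact permutation p = 0.122).

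**Figure D5:**
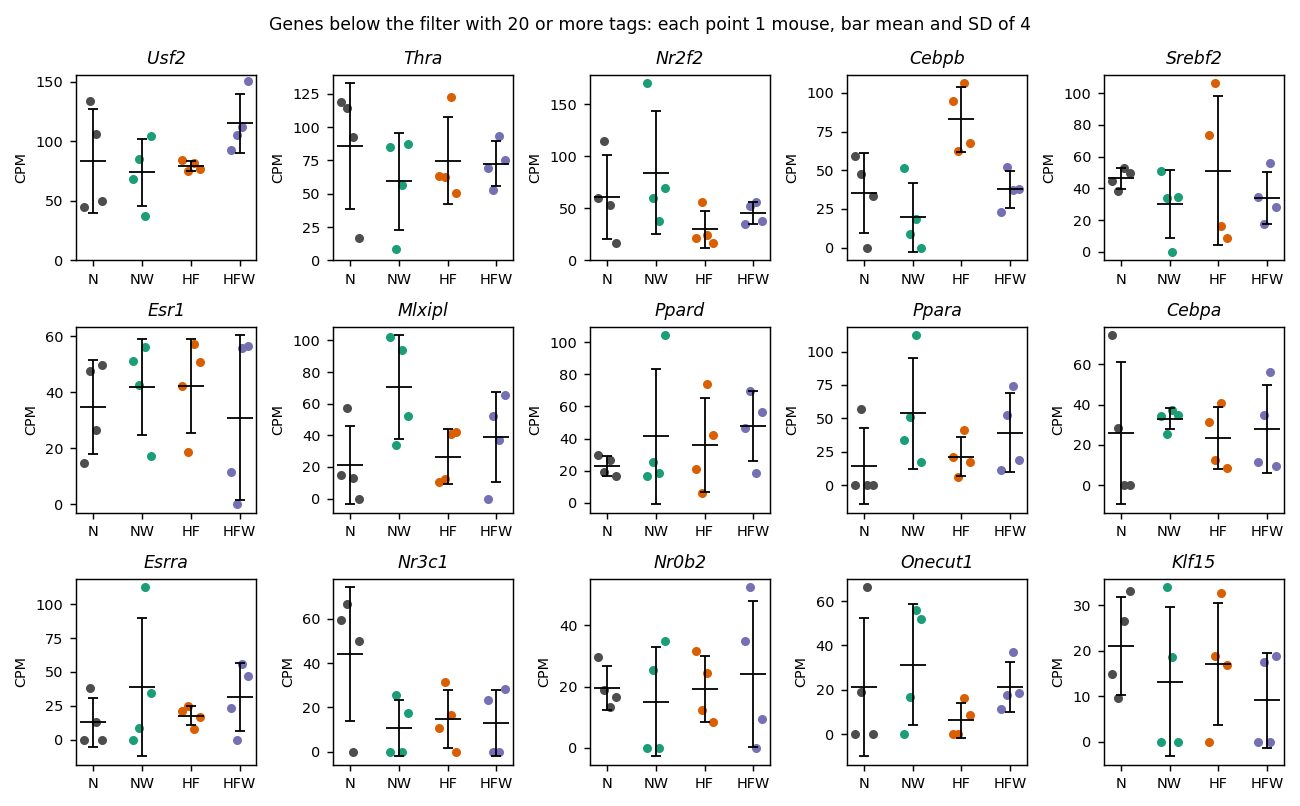
CPM of the 15 genes with 20 or more tags below the filter, by feeding group; each point is 1 mouse, with the mean and SD of 4 mice. Cebpb is higher in every HF mouse (62.6 to 106 CPM) than in the other groups, by less than 1 tag at the closest. Most other panels overlap, with single mice at 0.

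In order of mean level over all mice the genes ran from Rxra through Onecut2, Hnf4a, Rara, Nr1i3 and Zbtb16 to Usf2, Thra and Nr2f2. Onecut2 was above Hnf4a in 9 of 16 mice, Hnf4a above Rara in 14, Rara above Nr1i3 in 11, Nr1i3 above Zbtb16 in 12, Zbtb16 above Usf2 in 7 and Usf2 above Thra in 12. Apart from Rxra and Onecut2, the ranges of these neighbours overlapped.

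Other genes of the same systems were taken from lists drawn up by function. Of 2 tested other nuclear receptors, 1 was higher and 1 lower for the mean WEPAK effect, where 31.3% of all tested genes passed. The lower was Nr1d1 (REV-ERB alpha, a clock repressor), at -0.95 (SE 0.23, adjusted p = 0.00316, edgeR). Of 7 tested other liver transcription factors, 2 were higher and 1 lower, and the median of the 7 was -0.34. The higher were Creb3l3 (0.69, adjusted p = 0.0102) and Tef (0.56, adjusted p = 0.0219) (edgeR). Of 29 coregulators 2 were tested and 0 passed. Of 4 tested genes of SREBP processing, 1 passed, the coat protein gene Sec24c, with a value of -1.01 (adjusted p = 0.000579, edgeR).

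Known target genes of the listed receptors passed the edgeR test in both directions for the mean WEPAK effect, the comparison given here unless stated, and the receptors' own changes were not tested against them. The counts of each list stand beside a share of 31.3% over all tested genes (159 higher and 168 lower of 1046), and with so few genes a list they are a description. Of 8 tested PXR and CAR targets, 0 were higher and 2 lower, the cytochrome Cyp2c29 (-1.34, adjusted p = 0.00680) and the epoxide hydrolase Ephx1 (-1.04, adjusted p = 0.0102) (edgeR). Cyp2c29 averaged 709 ± 212 CPM (SD, n = 4) in N, 724 ± 383 in HF, 297 ± 127 in NW and 257 ± 171 in HFW. Among 10 tested HNF4A targets, with a median of 0.42, 3 were higher (Pck1, Ttr and Apoc2) and 1 lower. Of 14 tested PPARalpha targets, 3 were higher, among them the thiolases Acaa2 (1.36) and Acaa1a (1.02), and 2 lower, among them Acadvl (-0.88), with a median of -0.11. The median over all tested genes was 0.025.

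The 7 tested LXR targets gave 2 higher and 0 lower with WEPAK, the cholesterol exporter Abca1 (0.79) and the phospholipid transfer protein Pltp (0.56), with a median of 0.21. Of 4 tested FXR targets, 0 were higher and 1 lower, the bile acid carrier Slc10a1 (-0.80). The other 3 had positive values that did not pass, and the median was 0.14. The 8 tested ChREBP targets gave 3 higher, among them Slc2a2 (0.86) and Thrsp (1.46), and 1 lower, Acly (-1.22), with a median of 0.36. Thrsp was also the 1 tested thyroid hormone target. Both tested glucocorticoid receptor targets were higher, Tdo2 (1.10) and Pck1 (0.92). For the mean high-fat effect, the LXR target Scd1 (-0.96, adjusted p = 0.0292) was lower and Ephx1 (1.49, adjusted p = 0.0221) higher (edgeR quasi-likelihood test), and no other gene of these 13 lists passed.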

How the data were processed

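SuperSAGE libraries were made from total liver RNA of 16 mice, per the labels. The authors deposited a table of raw tag counts per RefSeq transcript with a column per mouse. How tags were matched, to which RefSeq release and to which genome build is not stated in the labels or headers, and no molecular identifiers are named, so counting limits cover counting error only. Of 26782 rows, 417 without a symbol (0.0729% of tags) were left out, and 40 of 41 symbols that had turned into dates were restored from the RefSeq identifier. Totals over all rows ran from 56684 to 149464 tags.

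Counts were summed per symbol (20826 symbols, 10171 with tags) and fitted over all 16 libraries with edgeR 4.0.16 under R 4.3.3 (TMM normalization, the default expression filter with a minimum count of 10, robust quasi-likelihood, a mean per group), with Benjamini-Hochberg adjustment over 1046 genes and a threshold of 0.05. The WEPAK and high-fat mean effects average both simple contrasts. SEs are the log2 fold change over the square root of F. CPM used the normalized library size. The functions were tested on simulated counts. Genes below the filter with 20 or more tags were compared in CPM by an exact permutation test of 8 mice against 8, adjusted over all 2332 such genes. Mice were permuted over all 16 libraries, so the other factor (diet or extract) was not held fixed, unlike in the edgeR fit. Predicted tags were read from GENCODE M21 transcripts matched by RefSeq identifier. All 42 genes and every tested gene of the list are reported, and of the other lists up to 4 genes with the smallest p per list and comparison are named. Some genes of the other lists that meet this rule are not reported here. The genes and lists were chosen with earlier results of these data known. Alternatives were DESeq2 1.42.0 (size factors and Wald test), limma 3.58.1 (voom), no filter, a minimum count of 20, a fit that was not robust, the compared groups alone, RefSeq rows tested separately, CPM of the raw totals, and leaving out each mouse. Leaving out N mice 4 and 8 together was added after seeing the data.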

Additional observations from a re-analysis of the deposited data

Results flagged for a closer look

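In 3 of 84 sets of 4 mice examined, 1 mouse lay far from the other 3 by Dixon's criterion, and chance flags about 1 in 20 such sets, or 4.2 here. Ppara in N was at 57.21 CPM in mouse 5 and 0 in the others. Ppard in NW was at 104.3 CPM in mouse 20 and 17.1 to 25.5 CPM in the others. Thra in HF was at 122.8 CPM in mouse 28 and 50.9 to 63.2 CPM in the others.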

How the results depend on the processing

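Depth limits these results: 36 of the 42 genes had too few tags for the test across all genes, and each group has 4 mice. The number of listed genes called in NW against N, 1 as reported, was 0 with a minimum count of 20, where Zbtb16 and Nr1i3 were not tested, 0 with limma-voom, 0 with the compared groups alone, where Zbtb16 was not tested, 0 without N mice 4 and 8, and 0 to 1 when a mouse was left out. For the mean WEPAK effect, 2 as reported, it was 1 without a filter, 0 with a minimum count of 20, 0 with limma-voom, 0 without N mice 4 and 8, and 0 to 2 when a mouse was left out. It was 0 to 1 for HFW against HF and for the mean high-fat effect when a mouse was left out. The 1 in the latter came without N mouse 4, where 107 of 1205 genes passed against 6 of 1046, and the 1 in the former without HFW mouse 34, where 119 of 1067 passed against 103 of 1046. By limma-voom, Zbtb16 had 1.97 in NW against N (adjusted p = 0.111) and 1.12 in the mean WEPAK effect (adjusted p = 0.0841), and Nr1i3 had 0.68 in the latter (adjusted p = 0.0561). Without a filter Nr1i3 had 0.63 in the mean WEPAK effect (adjusted p = 0.323, edgeR).

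Some small values changed sign, none of them called. Without N mice 4 and 8, Hnf4a had -0.36 in HF against N, -0.11 in NW against N and -0.12 in the mean high-fat effect, and Nr1i3 -0.068 in the last. In the mean high-fat effect, limma-voom gave -0.021 for Rxra and -0.041 for Nr1i3, and no filter gave 0.016 for Rara. Without a filter Nr1i3 had 0.11 in HF against N. When a mouse was left out, Hnf4a ran from -0.22 to 0.35 in HF against N and from -0.056 to 0.22 in the mean high-fat effect. Nr1i3 ran from -0.26 to 0.14 and from -0.13 to 0.20 in the same comparisons. In the mean high-fat effect Rxra ran from -0.067 to 0.11 and Rara from -0.19 to 0.064, and Zbtb16 in HFW against HF from -0.046 to 0.55. In CPM of the raw totals, Esrra differed by 0.142 CPM in the mean high-fat effect and Nr0b2 by -0.771 CPM in the mean WEPAK effect, both of reversed sign. The cause of these changes was not tested. No paired analysis was possible because the groups share no mouse number.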
